A study of Danio rerio with 6 samples.

Results

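The genes of the red cell membrane, its channels and its carbonic anhydrase described here are *slc4a1a*, *sptb*, *aqp1a.1* and *cahz*. They were found by gene symbol in the array annotation, and each had 1 probe set, so they make 4 of 8793 named genes. The genes were chosen by their symbols with their log2 difference between mutant and WT embryos on these arrays known. Their values in this comparison are therefore given as a description, with no test, and their being lower in the mutants is no finding.

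The 6 samples were total RNA of entire zebrafish embryos at 24 hpf, 3 from *fogsk8* mutants and 3 from WT siblings. Equal numbers of embryos went into both groups, and each sample was read on its own Affymetrix array. The *sk8* allele truncates Spt5, an elongation factor of RNA polymerase II that can both hold back and stimulate transcription. The mutant embryos still held some maternal Spt5 protein. The study's methods name wild-type embryos of the AB strain, and do not give the strain of the WT siblings or the mutants on the arrays. Nor do they say how many of the siblings carried the allele. Values are on the log2 scale, so that 1 unit is a 2-fold change, and were made by the authors with GC-RMA, which corrects for background and normalizes between arrays. The transcript of *supt5h*, the mutated gene, was 11.6-fold lower in the mutants, at 7.42, 7.56 and 6.80 on the WT arrays and 3.66, 3.70 and 3.81 on the *fogsk8* arrays (log2 difference −3.54, SE 0.20, adjusted p = 0.000994 by limma). The group labels and this transcript thus went together on all 6 arrays. Array medians were 5.08 to 5.15, the 10th percentile of all values was 2.31 and the lowest value 1.12. Values under about 3 are called the low end of the scale here, and a probe set that reads there in WT has little room for a decrease.

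The red blood cells of the early zebrafish embryo are the primitive erythrocytes, which arise in the intermediate cell mass and enter the circulation at about the stage sampled here. Their membrane rests on a lattice of spectrin, which is tied to the anion exchanger and to other membrane proteins by ankyrin and protein 4.1. Carbonic anhydrase in the cytoplasm turns carbon dioxide into bicarbonate, the anion exchanger trades bicarbonate for chloride across the membrane, and aquaporin lets water follow. Zebrafish mutants of *slc4a1a* (*retsina*) and *sptb* (*riesling*) are known for their anaemia.

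*slc4a1a* encodes the anion exchanger of the red cell membrane, and its transcript was the lowest of the set in the mutants relative to WT. It read 7.92, 7.76 and 9.37 on the WT arrays and 2.53, 2.76 and 2.58 on the *fogsk8* arrays. The groups did not overlap, and WT replicate 3 stood above the other WT arrays. The means were 8.35 ± 0.89 and 2.62 ± 0.12 (SD, n = 3 each), a log2 difference of −5.73 (SE 0.43) or 53.0-fold. In WT its mean stood at percentile 86.6 of all probe sets and in *fogsk8* embryos at percentile 16.1. With mutant values at the low end of the scale, the fold may understate the change.

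*sptb* encodes the beta chain of red cell spectrin, the main strut of the membrane skeleton. Its probe set read 6.31, 6.15 and 7.03 in WT and 2.96, 2.94 and 3.52 in *fogsk8* embryos. Every mutant array lay below every WT array, and the highest mutant value was that of replicate 3. The means were 6.50 ± 0.47 and 3.14 ± 0.33 (SD, n = 3 each), which is a log2 difference of −3.36 (SE 0.28) or 10.3-fold. Its WT mean was at percentile 65.6 of all probe sets, and its mutant mean at percentile 26.7. The mutant values of 2.96 and 2.94 were at the low end of the scale, so here too the fold may understate the change.

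*aqp1a.1* encodes a water channel of red cells that endothelial cells are known to express as well. It read 7.98, 8.17 and 8.80 in WT and 4.75, 4.59 and 5.71 in *fogsk8* embryos. The groups did not overlap, and replicate 3 was the highest array of both. The means were 8.32 ± 0.43 and 5.02 ± 0.61 (SD, n = 3 each), a log2 difference of −3.30 (SE 0.36) or 9.85-fold. The mutant mean stood at percentile 49.2 of all probe sets, in the middle of the scale.

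*cahz* encodes a cytoplasmic carbonic anhydrase of red cells. It read 8.04, 8.11 and 9.44 in WT and 5.19, 5.24 and 5.21 in *fogsk8* embryos. The WT arrays were spread over more than 1 log2 unit, while the mutant arrays were nearly alike. The means were 8.53 ± 0.79 and 5.21 ± 0.027 (SD, n = 3 each), a log2 difference of −3.32 (SE 0.38) or 9.96-fold. This was also a mid-range level in the mutants, at percentile 51.0.

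**Figure D1:**
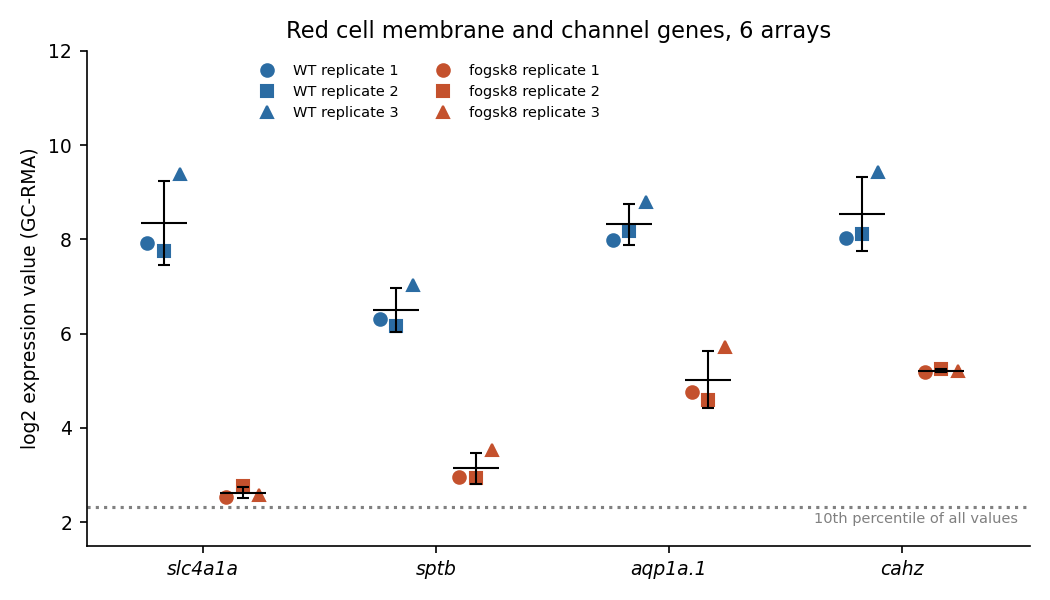
The log2 GC-RMA value (y axis) of the 4 genes (x axis) on each of the 6 arrays, with WT in blue and *fogsk8* in red, a marker shape for each replicate number, and bars for the mean ± SD (n = 3). Mutant values of *slc4a1a* and *sptb* come near the dotted 10th percentile of all values (2.31), while those of *aqp1a.1* and *cahz* stay at 4.59 to 5.71.

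The difference was thus similar for *sptb*, *aqp1a.1* and *cahz*, at −3.30 to −3.36, and further from 0 for *slc4a1a*. Those of *sptb* and *slc4a1a* may be understated, as given above. Among all 8793 named genes ordered by their decrease, *slc4a1a* was at place 4, and *sptb*, *cahz* and *aqp1a.1* at places 29, 30 and 31. All 4 genes passed the threshold of an adjusted p under 0.05 and 2-fold, where 2.87% of the 15502 probe sets tested were lower at that threshold. In all 4 the groups did not overlap, with the mutants lower, as they did not in 13.8% of all probe sets. Both counts follow from the choice of the genes. In RNA of whole embryos, fewer red cells and less RNA per red cell cannot be told apart.

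**Figure D2:**
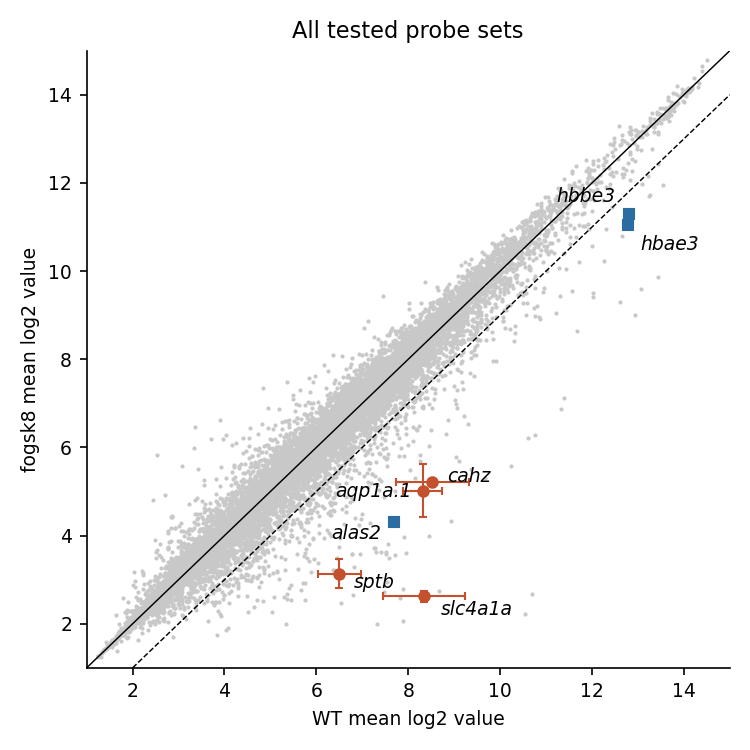
The mean log2 value in *fogsk8* (y axis) against that in WT embryos (x axis) for all tested probe sets (grey), with the 4 genes in red (bars: SD, n = 3) and the globin genes *hbae3* and *hbbe3* and the haem gene *alas2* as blue squares. The solid line marks equal values and the dashed line a 2-fold decrease, and the 4 genes lie 9.85-fold to 53.0-fold below equality.

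The spread within the groups came largely from replicate 3. In WT, replicate 3 was above the mean of replicates 1 and 2 by 1.54 for *slc4a1a*, 0.80 for *sptb*, 0.72 for *aqp1a.1* and 1.36 for *cahz*. These deviations were at percentiles 97.4 to 99.7 of those of all probe sets, whose SD was 0.33. The globin genes moved the same way, by 0.58 for *hbae3* and 0.64 for *hbbe3*, as did *alas2*, the first enzyme of haem synthesis in red cells, by 0.82. The red cell transcripts named so far were therefore high on this array, but not all red cell markers were. *hbbe2* was high too, at 9.58 against 8.38 and 8.23. *urod* read 9.15 against 8.98 and 8.99, and *fech*, at the low end of the scale, 1.79 against 2.17 and 2.36. Some transcripts of other cells were high on this array as well. The myeloid gene *lyz* read 8.64 there against 7.46 and 7.57, and the melanin gene *dct* 7.92 against 7.10 and 6.96. *supt5h* went the other way, by −0.69.

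Among the mutants, the genes parted. Replicate 3 was higher by 1.04 for *aqp1a.1* and by 0.57 for *sptb*, at percentiles 99.2 and 96.1 of all probe sets, and also by 0.90 for *hbae3* and 0.67 for *hbbe3*. For *slc4a1a* and *cahz* it differed from the mean of replicates 1 and 2 by only −0.066 and −0.0061, and for *alas2* by −0.25. With replicate 3 of both groups left out, the log2 differences were −5.20 for *slc4a1a*, −3.28 for *sptb*, −3.41 for *aqp1a.1* and −2.86 for *cahz*. The replicates carry no label of batch, stage or handling that sets replicate 3 apart, and whether it was collected apart was not tested.

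The other red cell transcripts did not all move by the same amount. The globin genes *hbae3* and *hbbe3*, which are among the brightest on the array, were lower by a log2 difference of −1.73 (SE 0.31) and −1.52 (SE 0.27), while *alas2* was lower by −3.38 (SE 0.26). Set against *alas2* within each array, *sptb*, *aqp1a.1* and *cahz* shifted between the groups by 0.017, 0.076 and 0.060, which is no more than the SD of these within-array differences in either group. For *slc4a1a* the shift against *alas2* was −2.35, from 0.67 ± 0.47 to −1.68 ± 0.11 (SD, n = 3 each). Against *hbae3* the 4 genes shifted by −1.57 to −4.00. These shifts use the contrast by which the genes were picked and carry no test. Of the 6 red cell marker genes measured, *alas2*, *urod*, *hbae3* and *hbbe3* passed the threshold, and *hbbe2* and *fech* did not (log2 differences 0.51 and −0.48). *hbbe2* read 8.38, 8.23 and 9.58 in WT and 8.89, 8.85 and 9.98 in *fogsk8* embryos. Each mutant array was thus above the WT array of its replicate number. The adjusted p of *hbbe2* was 0.506 by limma in the main fit, and 0.019 to 0.834 over the alternative settings given below. The globin calls were lost without WT replicate 1 or *fogsk8* replicate 1 or 2 (adjusted p = 0.0508 to 0.0612). *fech* was at the low end of the scale in both groups.

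**Figure D3:**
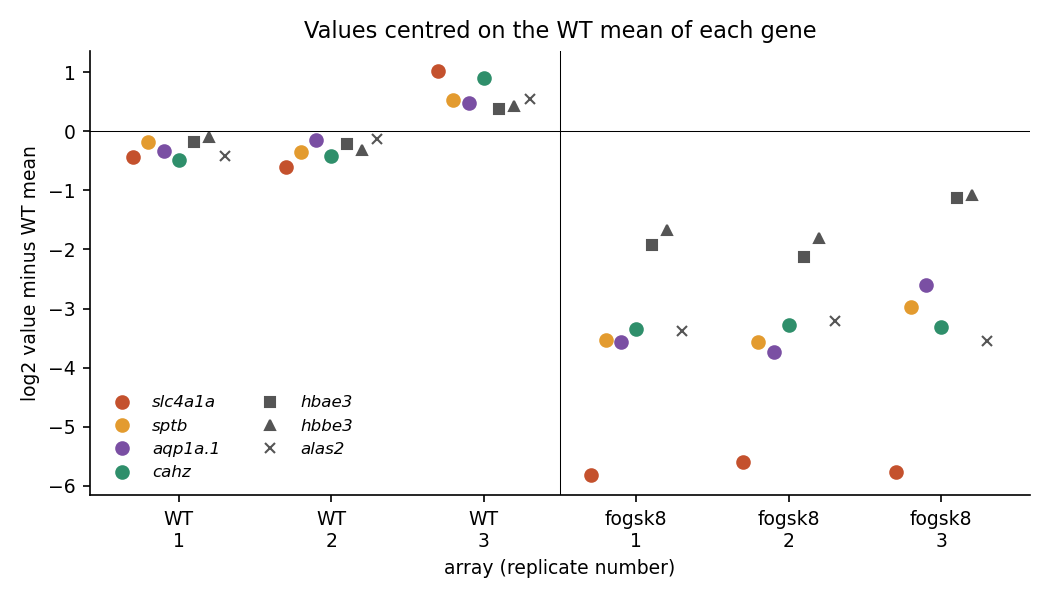
Values on the 6 arrays (x axis, by group and replicate number) as log2 units above or below the WT mean of each gene (y axis), for the 4 genes (coloured circles) and for *hbae3*, *hbbe3* and *alas2* (grey marks). WT replicate 3 is above 0 for every gene shown, the mutant points of *sptb*, *aqp1a.1*, *cahz* and *alas2* lie between −3.73 and −2.61, with replicate 3 the highest for *sptb* and *aqp1a.1*, and those of *slc4a1a* lie between −5.82 and −5.59.

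Genes with a similar profile were found by the root mean square distance between log2 values centred on the WT mean, over the 6 arrays and all named genes. The 3 genes closest to *cahz* were *epb41b*, which encodes the erythrocyte form of protein 4.1 (0.18 log2 units), *alas2* (0.21) and *sptb* (0.28). Closest to *sptb* were *ucp3*, a mitochondrial uncoupling protein (0.14), *mylpfa*, a light chain of fast muscle myosin (0.17), and *aqp1a.1* (0.19). For *aqp1a.1* they were *mylpfa* (0.14), *sptb* (0.19) and *ucp3* (0.20). *slc4a1a* had no near match among the set, and its closest genes were *dct*, an enzyme of melanin synthesis (0.40), *atp1a1a.2*, a Na,K-ATPase subunit (0.45), and *lyz*, the lysozyme of myeloid cells (0.48). The other genes of the set came at places 23, 24 and 29 in its order. With 2 groups of 3 arrays, such closeness reflects mainly the size of the decrease and replicate 3.

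Of the membrane skeleton genes other than *sptb*, *epb41b* and *dmtn* fell in *fogsk8* embryos and the rest of those measured did not pass the test. *epb41b* read 5.23, 5.63 and 6.40 in WT and 2.61, 2.53 and 2.49 in the mutants, at the low end of the scale (log2 difference −3.21, SE 0.29, adjusted p = 0.00306). *dmtn*, which encodes dematin, an actin-bundling protein of the red cell junctional complex, read 5.53, 5.52 and 6.11 in WT and 2.69, 2.73 and 3.35 in the mutants (log2 difference −2.80, SE 0.25, adjusted p = 0.00295). Both were called with any 1 array left out. On both genes WT replicate 3 was again the highest of its group. In all, 2 of 12 measured genes fell and 0 rose, against 3.2% of all named genes that fell and 0.898% that rose, and the median difference was −0.22, where that of all named genes was 0.057. The cytoplasmic actins *actb1* and *actb2*, which nearly all cells use, had log2 differences of −0.33 (adjusted p = 0.0619) and −0.22 (adjusted p = 0.132). *ank1a*, an ankyrin gene, was at the low end of the scale in both groups, at 2.82 ± 0.054 and 2.96 ± 0.099 (SD, n = 3 each), where a decrease could hardly be seen.

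The spectrins of other tissues had log2 differences nearer to 0 than that of *sptb*, and none passed the threshold. *sptan1*, the alpha chain found in most cells, was at 9.62 ± 0.11 in WT and 9.32 ± 0.16 in *fogsk8* embryos (SD, n = 3 each, log2 difference −0.30, adjusted p = 0.107). *sptbn1*, a beta chain of other tissues, was at 9.01 ± 0.14 and 8.50 ± 0.22 (SD, n = 3 each, log2 difference −0.50, adjusted p = 0.0571). The other probe sets of *sptbn1* had log2 differences of −0.18 and −0.72, and neither passed. The second probe set of *sptan1*, at the low end of the scale, went the other way (log2 difference 0.37, adjusted p = 0.0236, under 2-fold). Of 6 other spectrin genes listed, 2 were measured. Of these 2, 0 passed by limma or by the methods' t-test at 2-fold, and on the probe sets with the highest mean both were lower at an unadjusted p under 0.05 by limma.

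Nor did the relatives of *slc4a1a* pass it. *slc4a2a*, an anion exchanger of many tissues, was at 6.35 ± 0.41 in WT and 6.30 ± 0.13 in the mutants (SD, n = 3 each, log2 difference −0.053, adjusted p = 0.871). *slc4a4b*, a sodium bicarbonate cotransporter gene, was at 3.49 ± 0.0024 and 3.59 ± 0.030 (SD, n = 3 each, log2 difference 0.10, adjusted p = 0.224). Of 13 other SLC4 genes listed, only these 2 were measured, and *slc4a4b*, with means under 4 in both groups, had little room for a decrease. Of these 2 genes, 0 passed in either direction by limma or by the methods' t-test, and 0 had an unadjusted p under 0.05 by limma.

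Among the aquaporins, *aqp3a* and *aqp8a.1* fell besides *aqp1a.1*. *aqp3a*, which encodes a channel for water and glycerol that human red cells also hold, read 8.88, 8.92 and 10.3 in WT and 4.92, 4.85 and 6.79 in *fogsk8* embryos (log2 difference −3.85, SE 0.66, adjusted p = 0.0171). Its groups did not overlap, and replicate 3 was the highest array in both. Its call was lost without *fogsk8* replicate 1 (adjusted p = 0.0556) or 2 (adjusted p = 0.0537). *aqp8a.1*, another water channel, had a log2 difference of −1.51 (SE 0.26, adjusted p = 0.0164), and its call was lost without WT replicate 2 (adjusted p = 0.0543) or *fogsk8* replicate 2 (adjusted p = 0.0537). *aqp12* and *aqp9b* had log2 differences of 0.43 (adjusted p = 0.101) and 0.079 (adjusted p = 0.431). *aqp9b*, at 3.05 in WT and 3.13 in the mutants, had little room for a decrease. Of 16 other aquaporin genes listed, 4 were measured. Thus 2 of these 4 fell and 0 rose, where 3.2% of all named genes fell and 0.898% rose, a background that holds for the counts of the other lists too.

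Of 7 other carbonic anhydrase genes measured (18 listed), *ca2* fell and 0 rose. *ca2*, a cytoplasmic enzyme of ion-transporting cells, read 9.23, 9.19 and 9.87 in WT and 8.01, 8.13 and 8.48 in the mutants (log2 difference −1.23, SE 0.22, adjusted p = 0.0199). The call was lost without *fogsk8* replicate 1 (adjusted p = 0.0627) or 2 (adjusted p = 0.0641). The second probe set of *ca2* had a log2 difference of −1.33 (adjusted p = 0.0507). *ca5a*, the mitochondrial form, had a log2 difference of 0.20 (adjusted p = 0.201), and 4 of the 7 genes had means under 4 in both groups. *ca2* and *cahz* are similar in sequence, and whether their probes cross-hybridize was not tested.

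**Figure D4:**
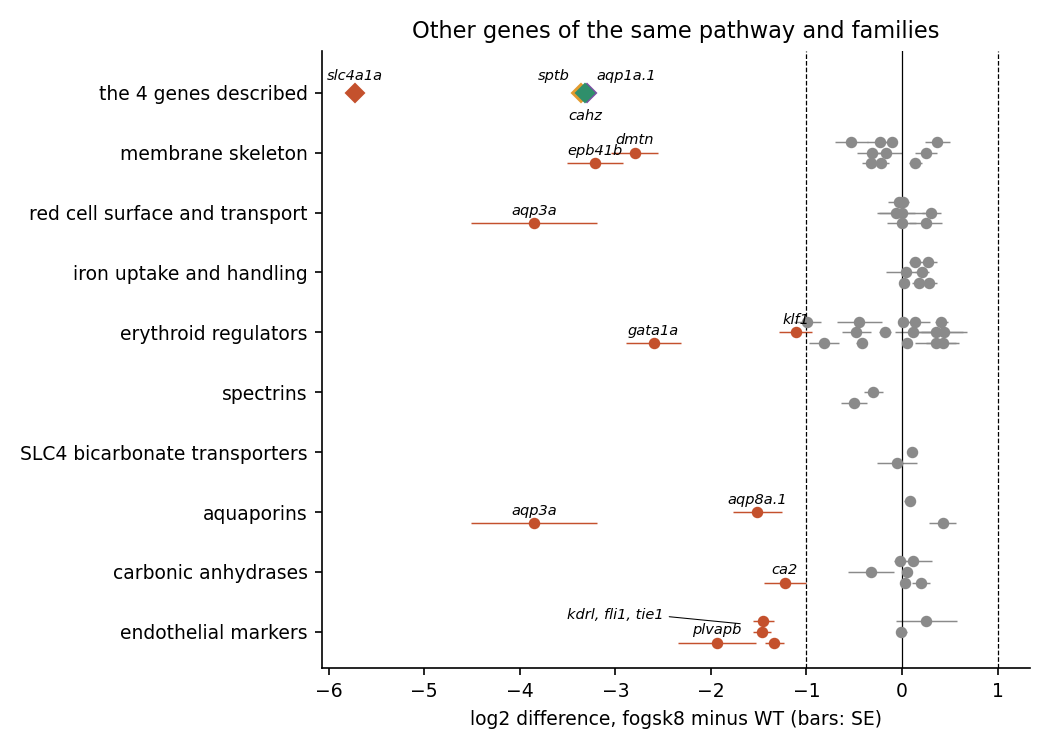
The log2 difference between *fogsk8* and WT (x axis, bars: SE) for the 4 genes described (diamonds, no bars) and for measured list and family genes (rows). Those past the threshold are in red and named, the others in grey. Markers of red, myeloid, thrombocyte, pronephros and ionocyte cells are not drawn. Dashed lines mark 2-fold, and the list and family genes drawn in red are all lower in the mutants, from −1.11 for *klf1* to −3.85 for *aqp3a*, with *slc4a1a* beyond them at −5.73.

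Of the other surface and transport proteins of red cells, *aqp3a* alone passed the threshold among 8 genes measured of 25 listed (median difference −0.0019). The part of red cells in the decrease of *aqp3a* was not tested. *bsg*, the glycoprotein basigin, and *atp2b1a*, a calcium pump of the cell membrane, had log2 differences of 0.31 (adjusted p = 0.096) and −0.0047 (adjusted p = 0.984). Genes of iron uptake and handling were likewise not past the threshold, with 0 of 7 in either direction by limma at 2-fold and differences of 0.021 to 0.29. The methods' t-test gave 0 as well at 2-fold, and 4 of the 7 were higher at an unadjusted p under 0.05 by limma. Among them were the transferrin gene *tfa* (0.18, adjusted p = 0.157) and the ferritin gene *fth1a* (0.29, adjusted p = 0.0548). *slc25a37*, the mitochondrial iron importer of red cell precursors, read at the low end of the scale in both groups (2.33 ± 0.029 and 2.35 ± 0.039, SD, n = 3 each), where a decrease could hardly be seen.

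Among the regulators of red cell development, *gata1a* and *klf1* fell. *gata1a*, the zinc finger factor that drives red cell genes, read 5.21, 4.94 and 6.06 in WT and 2.83, 2.87 and 2.70 in *fogsk8* embryos (log2 difference −2.60, SE 0.29, adjusted p = 0.00519). Its WT replicate 3 was the highest array, as for the membrane genes. *klf1*, a Krüppel-like factor of red cells, was dim, at 3.98, 3.29 and 3.61 in WT and 2.54, 2.53 and 2.46 in the mutants (log2 difference −1.11, SE 0.17, adjusted p = 0.013). Its change was under 2-fold without WT replicate 1 (log2 difference −0.94). Of 17 genes measured, 2 fell and 0 rose. The median difference was 0.012, that of *ldb1b*, which was at the low end of the scale in both groups (1.93 and 1.94). Means were under 4 in both groups for 6 of the 17. At an unadjusted p under 0.05 by limma and any fold, 7 were lower and 2 higher. *znfl2a* and *myb* were lower by less than 2-fold (log2 differences −0.99 and −0.81, adjusted p = 0.0102 and 0.023). So was *nfe2*, at the low end of the scale (−0.42, adjusted p = 0.00791). *klf3* went the other way and was higher by less than 2-fold (0.41, adjusted p = 0.0167). *tal1* and *lmo2*, which act early in blood formation, had log2 differences of 0.43 (adjusted p = 0.157) and 0.14 (adjusted p = 0.578). *ldb1a*, the regulator with the highest mean, had −0.18 (adjusted p = 0.136), and 0.17 on its other probe set (adjusted p = 0.441).

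Markers of other cells that may hold transcripts of the set moved as well. Of 6 endothelial markers measured, *kdrl*, *fli1*, *tie1* and *plvapb* fell (log2 differences −1.33 to −1.94, adjusted p = 0.00136 to 0.0294) and 0 rose, and *tek* was at the low end of the scale in both groups. *flt4* had a log2 difference of 0.26 (adjusted p = 0.615). The second probe set of *fli1* was lower by less than 2-fold (−0.60, adjusted p = 0.0175), and *tie1* was dim, at 3.82 in WT and 2.49 in the mutants. The call of *plvapb* was lost without *fogsk8* replicate 1 or 2 or any 1 WT array (adjusted p = 0.0586 to 0.087). Their summed level on the log2 scale was 8.46 to 8.85 on the WT arrays and 7.18 to 7.73 on the *fogsk8* arrays. The part of endothelial cells in the decrease of *aqp1a.1* was not tested. Of 9 pronephros markers, *slc12a3* and *atp1a1a.4* fell, and 4 had means under 4 in both groups. *cdh17*, *pax2a* and *lhx1a* did not pass. The second probe set of *slc12a3*, at the low end of the scale, was lower by less than 2-fold (log2 difference −0.41, adjusted p = 0.00873). The sum, mostly *atp1a1a.4* and *cdh17*, was 9.26 to 9.58 in WT and 8.31 to 8.46 in the mutants. Both ionocyte markers measured (10 listed), *ca2* and *atp1b1b*, fell. Their sum, which was mostly *ca2*, was 9.64 to 10.3 in WT and 8.11 to 8.54 in the mutants. Cross-hybridization between *ca2* and *cahz* was not tested, as given above. The part of pronephros cells and ionocytes in the decrease of *cahz* was not tested. Of 12 myeloid markers measured, 5 had means under 4 in both groups. The median difference, −0.069, lay between those of *spi1b* and *csf1ra*, both at the low end of the scale in both groups. *lyz*, *ptpn6*, *lcp1* and *srgn* fell, the calls of *lcp1* without WT replicate 1 or 2 and of *srgn* without *fogsk8* replicate 1 or 2 being lost (adjusted p = 0.054 to 0.065). The second probe set of *coro1a* was lower too (log2 difference −2.57, adjusted p = 0.000647), while the brighter one did not pass (−0.77, adjusted p = 0.0899). The myeloid markers *cebpb* and *cebpa* were higher by less than 2-fold (log2 differences 0.89 and 0.54, adjusted p = 0.00379 and 0.0138). The sum of the list was 9.42 to 9.84 in WT and 9.11 to 9.21 in the mutants. Of 4 thrombocyte markers, *fli1rs* passed (adjusted p = 0.0461, and 0.102 to 0.127 without WT replicate 1 or 2 or any 1 *fogsk8* array), at a dim 3.61 in WT and 2.56 in the mutants. *itga2b* and *gp1bb* were at the low end of the scale in both groups. *thbs1b* was lower by less than 2-fold (log2 difference −0.86, adjusted p = 0.0155). It made up most of the sum of the list, which was 6.54 to 6.63 in WT and 5.66 to 5.98 in the mutants. In none of these lists did a gene rise at the threshold. As only 0.898% of all named genes rose, this is no result for lists of this size.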

How the data were processed

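The data are 6 Affymetrix Zebrafish Genome Arrays, 3 of WT siblings and 3 of *fogsk8* mutants. The authors deposited log2 values, made from the probe intensities with GC-RMA (no version stated); no step before these values was rerun. The number of arrays limits the precision.

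The table held 15617 probe sets. Without its 115 controls, 15502 entered a fit of the 2 groups by limma 3.58.1 (lmFit, eBayes) under R 4.3.3. Calls needed an adjusted p (Benjamini-Hochberg, all probe sets) under 0.05 and a 2-fold change. Tables were made with Python 3.11.15 and pandas 2.3.3. Platform annotation gave 1 symbol to 10795 probe sets, several to 135 and none to 4572, and 10711 were found in RefSeq (GRCz12tu, names and gene order only). For a gene with several probe sets, that of the highest mean was used. The lists held membrane skeleton, surface and transport, iron and regulator genes, the 4 families, and markers of red, endothelial, myeloid, thrombocyte, pronephros and ionocyte cells. *slc4a1ap*, which is no transporter, was not counted as a relative of *slc4a1a*. The members and lists were chosen with earlier results of these data known. In each list, up to 4 called genes with the largest change were named. Where fewer passed, up to 2 others of the highest mean were named, except among the pronephros markers. Other genes were named after their values were seen. The fit was tested on simulated data.

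The labels call the samples biological replicates, and share replicate numbers between groups. Deviations of same-numbered samples from their group means correlated at 0.12, 0.29 and 0.39, all over the bound of 0.1. Deviations from a group mean cancel out within the group. A deviation shared by replicate 3 alone therefore also makes the correlations of replicates 1 and 2 positive. Whether these 2 numbers pair the samples cannot be told from the correlations. The numbers may pair the samples, and the replicate block was an alternative. Adjusted p-values in the Results come from fits without this block, except the range of *hbbe2* over the alternatives. WT replicate 1 correlated more with *fogsk8* replicate 2 (0.18) than with its own number, and *fogsk8* replicate 1 more with WT replicate 2 (0.148). The other alternatives were the methods' t-test, no minimum fold, a mean-variance trend, centring on medians, further quantile normalization, omission of dim probe sets (mean under 4 in both groups), any probe set of a gene, and each array left out. The omission of replicate 3 from both groups was chosen after seeing the data.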

Additional observations from a re-analysis of the deposited data

How the results depend on the processing

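With centring on medians, the log2 differences of *slc4a1a*, *sptb*, *aqp1a.1* and *cahz* were −5.69, −3.32, −3.26 and −3.28. With further quantile normalization they were −5.74, −3.37, −3.29 and −3.30. With 1 array left out they ranged from −6.03 to −5.22, from −3.55 to −3.09, from −3.65 to −3.06 and from −3.56 to −2.86. All these values, and those without replicate 3 of both groups, lay within 1 SD (the larger group SD) of the main values. Leaving out 1 array of 3 cannot move a group mean that far. With the SDs of these 4 genes, leaving out replicate 3 of both groups cannot move the difference that far either. For both settings the SD is thus no test. The mean over all probe sets was the same by construction, as each gene had 1 probe set. The replicate block changed no call of a list or family, and gave 132 probe sets higher and 511 lower, where 116 and 445 were found without it.

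With the methods' t-test after Benjamini-Hochberg adjustment, 64 probe sets were higher and 254 lower, 1 regulator gene was lower, and 0 genes were lower among the surface and transport genes, the aquaporins and the carbonic anhydrases. Of the marker genes, the calls of *hbae3*, *hbbe3*, *plvapb*, *lcp1*, *srgn*, *ptpn6* and *fli1rs* were lost too (adjusted p = 0.0591 to 0.13), and that of *fli1rs* with quantile normalization (adjusted p = 0.0501). Before adjustment at 2-fold the same test gave 129 and 481 probe sets. With no minimum fold, 1376 probe sets were higher and 1239 lower, and 1 regulator gene was higher and 5 lower. With dim probe sets left out, 1 regulator gene was lower, since *klf1* is among those left out. With 1 array left out, the number lower was 1 to 3 for regulators (3 without WT replicate 3, *fogsk8* replicate 1 or *fogsk8* replicate 3, where *znfl2a* passed 2-fold), 0 to 1 for surface and transport genes, 0 to 2 for aquaporins and 0 to 1 for carbonic anhydrases, and 338 to 456 for all probe sets. The cause of these losses was not tested. Probe sets at the low end of the scale in WT leave little room for a decrease.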

Other observations

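Genes beside the 4 on their chromosomes, in the gene order of GRCz12tu, were read where the array measured them. Of the 16 protein-coding neighbours, 9 were measured and 0 passed the threshold, with log2 differences of −1.19 to 0.37. The neighbours of *slc4a1a*, *ubtf* and *selenow2b*, had differences of −0.30 (adjusted p = 0.0453) and 0.37 (adjusted p = 0.259), and *ccdc88c* beside *sptb* had −0.38 (adjusted p = 0.293). Near *aqp1a.1*, *thoc1*, 2 genes away, had a difference of 0.26 (adjusted p = 0.0933). Beside *cahz*, *cdh18a* had −0.65 (adjusted p = 0.0164) from a low WT level of 2.84 ± 0.13 (SD, n = 3), and *ptf1a*, 2 genes away, had −1.19 (adjusted p = 0.0607). Between *aqp1a.1* and *thoc1* lies *aqp1a.2*, a close relative of *aqp1a.1*, which was not analysed here.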
